A study of Mus musculus with 6 samples.

Results

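Mouse chromosome 16 carries the longest stretch of genes shared with human chromosome 21, the chromosome present in 3 copies in Down syndrome, and Dyrk1a lies within it. The genes described here are 54 protein-coding members of that stretch, taken as a list of mouse orthologues of human chromosome 21 genes on chromosome 16, with Dyrk1a itself left out. All 54 were found among the 33084 genes of the count table, and all 54 had enough reads to be tested, among 19616 tested genes. They were measured in forebrains dissected from mouse embryos at embryonic day 15.5. The 3 control embryos are labelled wt, and the 3 mutant embryos carry the genotype Dyrk1a<DlxCre/+>. In the mutants Dyrk1a is inactivated by Cre recombinase in the Dlx5 domain, where GABAergic neurons of the ventral forebrain arise. The genotype as written is heterozygous, with 1 copy of Dyrk1a marked +. The labels do not state whether the embryos were littermates or whether the controls carry the Cre or the conditional allele. The p-values set the difference between the genotypes against the spread between these samples.

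In trisomy 21 each of these genes is present in an extra copy, and a dose above or below the usual pair is studied gene by gene for its part in brain development. DYRK1A is a dose-sensitive kinase of this region that phosphorylates proteins of transcription, splicing, the cell cycle and endocytosis. The neighbours of Dyrk1a have varied roles: cell adhesion molecules of growing axons, proteins of synaptic vesicle recycling, transcription factors of the ETS family, chromatin proteins, ubiquitin enzymes, the interferon receptor, superoxide dismutase and the amyloid precursor protein.

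No member of the region passed the test of mutants against controls at an adjusted p of 0.05. Of the 54 members 22 had a log2 fold change (mutant over control) above 0 and 32 below, with a median of -0.03 and quartiles of -0.07 and 0.05. Over all tested genes the median was -0.01. Tested by quasi-likelihood in edgeR, 0 members passed an adjusted p of 0.05 (Benjamini-Hochberg over the whole table), as did 0% of all tested genes (smallest adjusted p = 0.9999). At an unadjusted p under 0.05 there were again 0 members, against 1.92% of all tested genes, and DESeq2 also gave 0 by either rule. In 3 members the mutant libraries did not overlap the control libraries, Erg and N6amt1 above and Setd4 below, where 6.89% of all tested genes were separated in this way. The targeted gene, Dyrk1a (GRCm38 chromosome 16, 94570010 to 94695517), lay at -0.02 ± 0.09 (SE), a count over the whole gene that does not single out the deleted part. In tissue taken whole, fewer cells of a type and less RNA per cell cannot be told apart.

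These comparisons were precise for most of the members. A 1.5-fold change, the gene dose of a trisomy, is 0.58 on the log2 scale. The intervals describe whole forebrain, so a change of that size confined to the Dlx5 domain could still lie within them. For 45 of the 54 members (83.3%) the 95% interval of the fold change lay within a 1.5-fold change either way, against 63.9% of all tested genes, which have lower counts (median 14.3 CPM, that is counts scaled to library size, against 37.6 for the members). The other 9 were Samsn1, Btg3, Eva1c, Runx1, Sim2, Ripply3, Erg, Sh3bgr and Bace2, all with a mean of 5.27 CPM or less in both groups. Their intervals reached past a 1.5-fold change, up or down or both. Low counts were not the only difference. Erg had a standard error of 0.15, below the 0.19 of Cyyr1, whose interval lay within the limit, but its value of 0.31 was further from 0. The median standard error was 0.12 for the members and 0.16 for all tested genes. Among the 7682 tested genes within the middle range of the member levels, 93.0% of intervals lay within a 1.5-fold change. Their median standard error was 0.11. That range leaves out the levels of the members with the lowest and the highest counts.

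**Figure D1:**
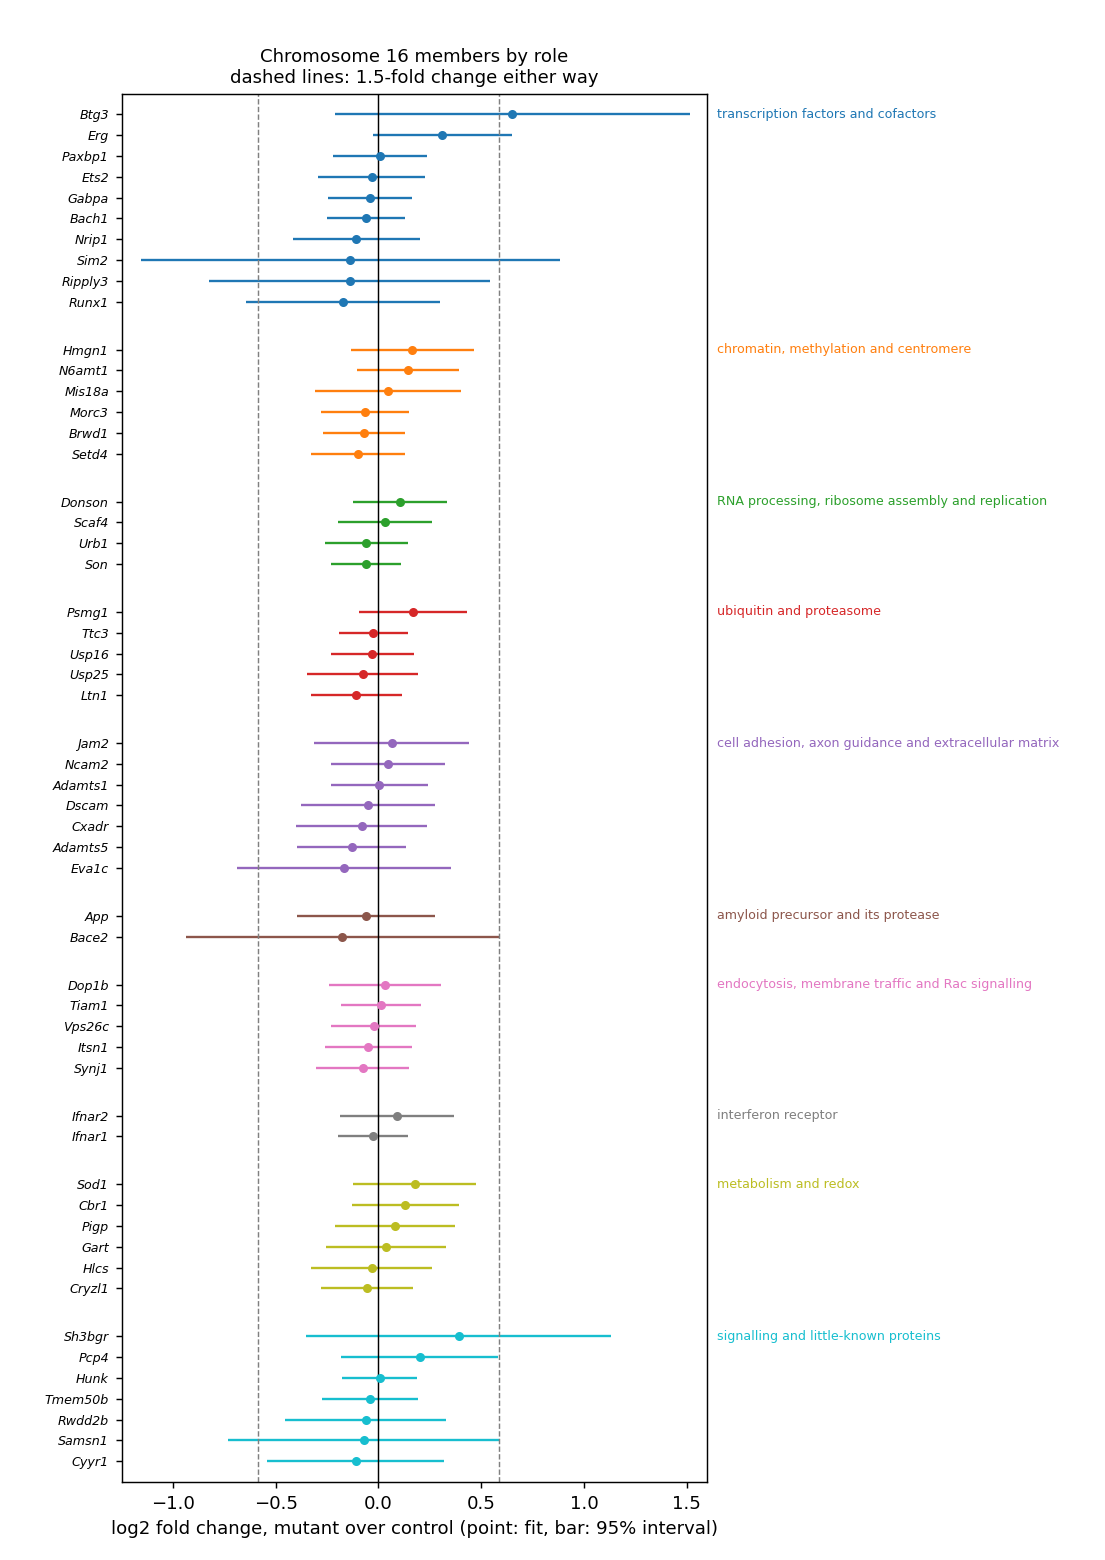
Log2 fold change of each of the 54 members, mutant over control, grouped by role (points, fitted values from 3 control and 3 mutant libraries; bars, 95% intervals; dashed lines, a 1.5-fold change either way). All 54 intervals cross 0 and 45 lie between the dashed lines. The widest are those of Sim2 and Btg3, which have few counts and also a wide spread between libraries.

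The members spanned a wide range of abundance in the embryonic forebrain. Per kilobase of exon the control mean exceeded 10 CPM in 24 members, lay between 1 and 10 in 22 and was under 1 in 8, with a median of 7.87 CPM per kb. Ttc3, an E3 ubiquitin ligase that acts on the kinase AKT, ranked first at 91.8 CPM per kb in controls. Cxadr, the coxsackievirus and adenovirus receptor and a junction protein of neural precursors, stood at 70.4, and Son, a splicing cofactor of nuclear speckles, at 66.2. The lowest were Runx1, a transcription factor of blood cells and sensory neurons, at 0.13 CPM per kb, and Bace2, an aspartyl protease, at 0.12. Ranked by level, 48 of the 53 neighbouring pairs overlapped in their range over the 6 libraries. Steps without overlap lay between Ttc3 and Cxadr, Hmgn1 and Paxbp1, Sod1 and Synj1, Setd4 and N6amt1, and Erg and Adamts5.

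**Figure D2:**
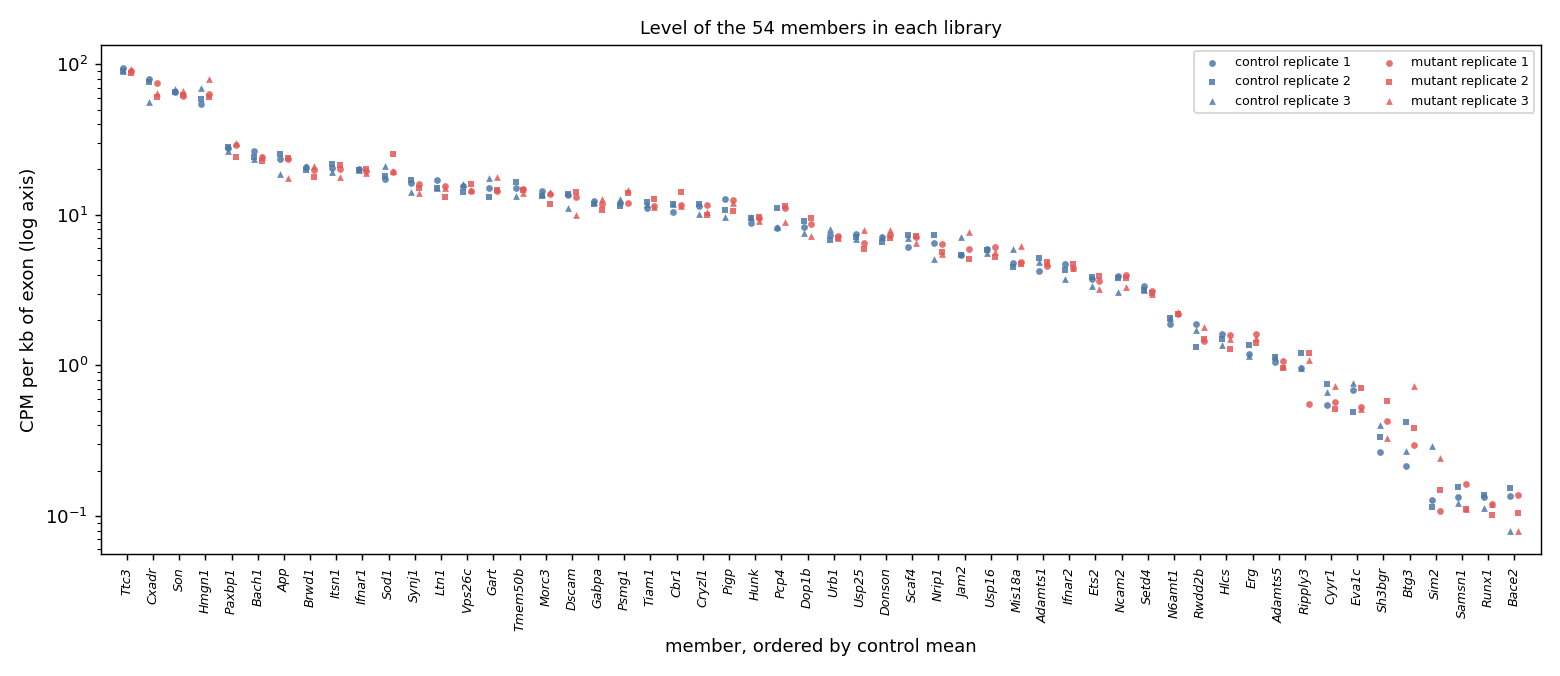
Level of the 54 members in CPM per kb of exon (log axis) in each of the 6 libraries, ordered by the control mean (blue, controls; red, mutants; circles, squares and triangles, replicates 1, 2 and 3). Levels fall from 91.8 CPM per kb for Ttc3 to 0.12 for Bace2, and control and mutant points overlap in 51 members.

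Among the genes at the top of that order the groups were close. Ttc3 (GRCm38 chromosome 16, 94370618 to 94469343) held 1535, 1472 and 1460 CPM in control replicates 1, 2 and 3 and 1470, 1411 and 1512 CPM in the mutants. The 2 groups overlapped, and the log2 fold change was -0.02 ± 0.07 (SE). Cxadr held 586, 562 and 414 CPM in the controls and 552, 449 and 476 CPM in the mutants. Its lowest value was that of control replicate 3, and the log2 fold change was -0.08 ± 0.14 (SE). Son held 974, 969 and 1017 CPM in the controls and 922, 930 and 985 CPM in the mutants, a log2 fold change of -0.06 ± 0.07 (SE). Its 95% interval ran from -14.8% to 7.77%, among the narrowest of the region.

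Some members start close to a neighbour that runs the other way, and the sequence at one such place is shown because the same bases lie in the promoter windows of the most abundant member and of its neighbour. Promoter windows of 300 bases, 250 before to 50 after the start site, came from RefSeq on GRCm38.p6 and matched 46 of the 54 members. Ttc3 and Pigp, a subunit of the enzyme that starts GPI anchor synthesis, run in opposite directions from RefSeq start sites 29 bases apart, while the GENCODE gene of Pigp starts further on, at 94371842, inside the span of Ttc3. Their windows hold a match to 8 bases of the NRF1 motif, GCATGCGC or its reverse complement GCGCATGC, marked in capitals. NRF1 is a transcription factor of housekeeping promoters. The 2 lines below are the 2 strands of the same bases, chr16:94370718-94370747, each written 5′ to 3′ along its own gene.
Ttc3, plus strand: acgcggcgactGCGCATGCgcaccctaagc
Pigp, minus strand: gcttagggtgcGCATGCGCagtcgccgcgt

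The 2 genes differed 65.5-fold in mean CPM, 1477 for Ttc3 and 22.5 for Pigp. Pigp held 25.2, 21.3 and 19.2 CPM in the controls and 24.8, 20.99 and 23.7 CPM in the mutants, and its groups overlapped. Its log2 fold change was 0.08 ± 0.13 (SE) against -0.02 ± 0.07 for Ttc3. The genes share 326 exon bases on opposite strands, and whether reads were assigned by strand is unknown here, so the counts of the weaker Pigp are uncertain. Other start sites within 1000 bases of each other on opposite strands were those of Gart and Son, 852 bases apart, of Cryzl1 and Itsn1, 569 bases apart, and of Gabpa and Atp5j, 148 bases apart. Atp5j, an ATP synthase subunit gene, is not a member. It shares 397 exon bases with Gabpa on the opposite strand, so the counts of both carry the same uncertainty. The log2 fold changes of these pairs were 0.04 and -0.06 for Gart and Son, -0.06 and -0.05 for Cryzl1 and Itsn1, and -0.04 and 0.00 for Gabpa and Atp5j. In 1 of the 4 pairs both values had the same sign.

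The ETS family motif was searched as well, since Gabpa, Erg and Ets2 are ETS factors. CCGGAAG or its reverse complement CTTCCGG was present in the windows of 13 of the 46 members (28.3%), namely Btg3, Gabpa, Usp16, Urb1, Ifnar1, Gart, Donson, Setd4, Dop1b, Hlcs, Vps26c, Psmg1 and Dscam. Over the windows of all 27025 genes the share was 9.93%, and over 17492 protein-coding genes 12.9%. These backgrounds were not limited to tested genes, while every member was tested, so the shares come from unlike sets. The NRF1 bases were present in 8 of the 46 (17.4%), namely N6amt1, Mis18a, Paxbp1, Cbr1, Morc3, Pigp, Ttc3 and Psmg1, against 3.05% of all genes and 3.94% of protein-coding genes. The matches of Pigp and Ttc3 are the same bases, counted for each gene. The inner bases CTCGCGAG of a palindrome described at promoters that DYRK1A occupies were present in 0 of the 46 windows, against 1.04% of all genes, and the cAMP response element TGACGTCA in 0, against 2.03%. Both strands were searched, each of the 2 palindromes counted once, and the NRF1 bases overlap their own reverse complement where the motif is complete. Of the 13 members with the ETS bases 5 had a log2 fold change above 0 and 8 below, and of the 8 with the NRF1 bases 6 lay above and 2 below, beside 20 above and 26 below over the 46. Windows of 4 members with the ETS bases are printed, in capitals and 5′ to 3′ along the gene: Gabpa for being an ETS gene itself, Usp16 and Vps26c as examples of a match close to the start site (12 bases before and 3 after it; those of Btg3 and Dop1b lie as near or nearer), and Setd4 as a member whose groups did not overlap.
Gabpa, chr16:84835020-84835049, plus strand: gagggtaagtgCTTCCGGgtccctcagcta
Usp16, chr16:87454962-87454991, plus strand: aatgccgcgttCCGGAAGttgcctctccgg
Setd4, chr16:93603942-93603971, minus strand: aagcaggagcaCTTCCGGtgggcctggcgt
Vps26c, chr16:94526608-94526637, minus strand: actcccgcgttCCGGAAGtgtgtgtgtgtg

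Among the 10 transcription factors and cofactors, 3 had values above 0 and 7 below, their median was -0.05 on the log2 scale, and none passed the test. Erg, an ETS factor of endothelial cells, had the smallest p of all members. It lay on chromosome 16 between 95359169 and 95586593 and held 4.11, 4.70 and 3.98 CPM in the controls and 5.59, 4.92 and 5.31 CPM in the mutants. Each mutant library lay above each control library, with means of 4.26 ± 0.39 and 5.27 ± 0.34 CPM (SD, n = 3 each). The log2 fold change was 0.31 ± 0.15 (SE; edgeR, adjusted p = 0.9999), with a 95% interval from -0.03 to 0.65. For replicates 1 and 2 alone Erg differed by 0.25 and for replicate 3 by 0.41, and over 14 alternative analyses the value ran from 0.27 to 0.38. Summed over 7 endothelial markers the libraries held 238 to 254 CPM in the controls and 246 to 262 CPM in the mutants, with 5 of the 7 above 0, a median log2 fold change of 0.04 and none of the 7 at 0. The part of the endothelium in the Erg value was not tested.

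Ets2, its neighbour and also an ETS factor, held 21.8, 22.4 and 19.6 CPM in the controls and 20.99, 22.8 and 18.7 CPM in the mutants, and its groups overlapped (log2 fold change -0.03 ± 0.11, SE). Gabpa, the DNA-binding subunit of a factor for mitochondrial genes, lay at -0.04 ± 0.09, and Bach1, a haem-regulated repressor of antioxidant genes, at -0.06 ± 0.08. Runx1 held 1.62, 1.66 and 1.37 CPM in the controls and 1.44, 1.22 and 1.44 CPM in the mutants, a log2 fold change of -0.17 ± 0.21 (SE). Runx1 and Samsn1, an adaptor of blood cells at 0.68 CPM in controls, are also made by macrophages, whose 8 markers summed to 45.9 to 59.7 CPM in controls and 47.1 to 60.1 in mutants. Nrip1, a corepressor of nuclear receptors, lay at -0.11 ± 0.14, Paxbp1, a partner of PAX proteins, at 0.01 ± 0.10, and Ripply3, a corepressor of T-box factors, at -0.14 ± 0.30. Btg3, an antiproliferative cofactor, had the largest value of the 54 at 0.65 ± 0.38 (SE), with 0.87, 1.70 and 1.08 CPM in the controls and 1.20, 1.54 and 2.91 CPM in the mutants. That value rested on mutant replicate 3, since it was 0.19 without that library. Btg3 also shares 695 exon bases on the opposite strand with Cxadr, which averaged 506 CPM, so its few counts are uncertain.

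The 6 members of chromatin, methylation and the centromere split evenly, 3 above 0 and 3 below, with none past the test. N6amt1, a methyltransferase subunit that modifies a translation release factor, held 11.5, 12.6 and 12.7 CPM in the controls and 13.4, 13.5 and 13.8 CPM in the mutants. The groups did not overlap, and the log2 fold change of 0.14 ± 0.11 (SE) did not pass the test (edgeR, adjusted p = 0.9999). Setd4, a SET domain methyltransferase gene, held 18.2, 17.0 and 17.2 CPM in the controls and 16.7, 16.3 and 15.9 CPM in the mutants. Its mutants lay below its controls, with a log2 fold change of -0.10 ± 0.10 (SE) that did not pass the test either (edgeR, adjusted p = 0.9999). Both genes kept their sign in all 14 alternative analyses. Hmgn1, a nucleosome-binding protein studied in Down syndrome, held 174, 188 and 224 CPM in the controls and 205, 196 and 257 CPM in the mutants. Replicate 3 was the highest of each group, the groups overlapped, and the log2 fold change was 0.17 ± 0.13 (SE). Without mutant replicate 3 the Hmgn1 value was 0.04, and without control replicate 3 it was 0.28. Mis18a, needed to load the centromeric histone, lay at 0.05 ± 0.16, Morc3, an ATPase of nuclear bodies, at -0.07 ± 0.09, and Brwd1, a bromodomain protein, at -0.07 ± 0.09.

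**Figure D3:**
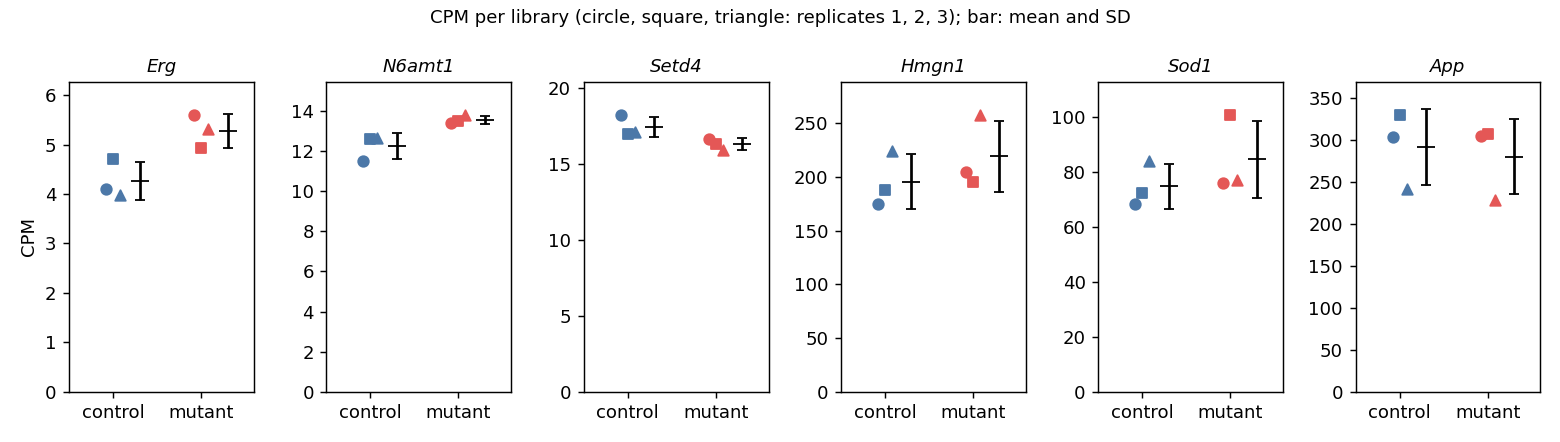
CPM of Erg, N6amt1, Setd4, Hmgn1, Sod1 and App in each library (circles, squares and triangles, replicates 1, 2 and 3; black bars, mean and SD, n = 3). The groups are separated for Erg, N6amt1 and Setd4 and overlap for the others; replicate 3 is the lowest of each group for App and the highest of each for Hmgn1.

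The members of RNA processing, ribosome assembly and replication also stayed close to the controls. Besides Son these were Scaf4, a factor of transcript ends, at 0.03 ± 0.10 (SE), Urb1, a ribosome assembly factor, at -0.06 ± 0.09, and Donson, a replication factor, at 0.11 ± 0.10. Donson shares 103 exon bases with Son, which is far more abundant. Of the 5 genes of ubiquitin and the proteasome, Psmg1, a chaperone of proteasome assembly, lay above 0 at 0.17 ± 0.12. The deubiquitinase genes Usp25 and Usp16 lay at -0.08 ± 0.12 and -0.03 ± 0.09, and Ltn1, the ligase of stalled ribosomes, at -0.11 ± 0.10. Usp16 shares 192 exon bases on the opposite strand with Cct8, which is not a member and averaged 210 CPM.

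Of 7 genes of cell adhesion, axon guidance and the extracellular matrix, 3 lay above 0 and 4 below, with a median of -0.05. Dscam, an immunoglobulin-family adhesion molecule through which neurites of a neuron avoid each other, held 119, 122 and 97.7 CPM in the controls and 116, 124 and 87.2 CPM in the mutants. Replicate 3 was again the lowest of each group, and the log2 fold change was -0.05 ± 0.14 (SE). Ncam2, a neural adhesion molecule, held 44.4, 42.9 and 34.6 CPM in the controls and 45.2, 43.4 and 37.4 CPM in the mutants, with replicate 3 lowest in both and a log2 fold change of 0.05 ± 0.12. Jam2, a junctional adhesion molecule, held 32.8, 32.8 and 42.8 CPM in the controls and 35.7, 31.0 and 46.6 CPM in the mutants. Here replicate 3 was the highest of each group, and the log2 fold change was 0.06 ± 0.17 (SE). Eva1c, a receptor for Slit guidance cues, lay at -0.17 ± 0.23, and the proteoglycan-cleaving proteases Adamts1 and Adamts5 at 0.01 ± 0.10 and -0.13 ± 0.12.

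App, whose product is cut into amyloid peptides, held 304, 330 and 242 CPM in the controls and 305, 308 and 228 CPM in the mutants. Replicate 3 was the lowest of each group, the groups overlapped, and the log2 fold change was -0.06 ± 0.15 (SE). Bace2, a protease that cuts the amyloid precursor, held 1.08, 1.22 and 0.63 CPM in the controls and 1.09, 0.83 and 0.63 CPM in the mutants. Its groups overlapped, with a log2 fold change of -0.18 ± 0.33 (SE).

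The 5 genes of endocytosis, membrane traffic and Rac signalling had the narrowest range of any group of 5 or more, from -0.08 to 0.03. Among those groups they also had the highest median level, 118 CPM, and the smallest median standard error, 0.09. All of their intervals lay within a 1.5-fold change. That also held for the groups of chromatin, RNA processing, ubiquitin, the interferon receptor and metabolism. Itsn1, a scaffold of clathrin-coated pits, held 482, 506 and 452 CPM in the controls and 474, 500 and 419 CPM in the mutants, with overlapping groups and a log2 fold change of -0.05 ± 0.09 (SE). Synj1, the phosphatase that uncoats synaptic vesicles and a DYRK1A substrate, held 132, 138 and 114 CPM in the controls and 129, 121 and 113 CPM in the mutants. Its groups overlapped too, with a log2 fold change of -0.08 ± 0.10 (SE) and a 95% interval from -18.9% to 10.9%. Dop1b, a protein of Golgi and endosome traffic, lay at 0.03 ± 0.12, and Tiam1, an activator of the GTPase Rac, at 0.01 ± 0.09.

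The subunits of the type I interferon receptor, Ifnar1 and Ifnar2, lay at -0.03 ± 0.08 and 0.09 ± 0.12 (SE). Ifnar1 varied least between the controls, which held 119, 118 and 118 CPM, and the mutants held 116, 119 and 113 CPM. Among the 6 genes of metabolism and redox 4 lay above 0 and 2 below, with a median of 0.06. Sod1, the copper-zinc superoxide dismutase, held 68.2, 72.4 and 83.9 CPM in the controls and 76.1, 101 and 77.0 CPM in the mutants. Mutant replicate 2 was the highest library, and the groups overlapped. The log2 fold change of Sod1 was 0.18 ± 0.13 (SE), and it was 0.03 without mutant replicate 2. Read by replicate, Sod1 differed by 0.32 in replicates 1 and 2 and by -0.12 in replicate 3. Cbr1, a carbonyl reductase, lay at 0.13 ± 0.12, Gart, an enzyme of purine synthesis, at 0.04 ± 0.13, Hlcs, which attaches biotin to carboxylases, at -0.03 ± 0.13, and the oxidoreductase-like Cryzl1 at -0.06 ± 0.10.

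The remaining genes are signalling proteins or little known. Pcp4, a regulator of calmodulin and a marker of some neurons, lay at 0.20 ± 0.17 (SE), and the kinase gene Hunk at 0.01 ± 0.08. Sh3bgr, at 0.53 CPM in controls, had 0.39 ± 0.33, Samsn1 -0.07 ± 0.29, Tmem50b, a membrane protein gene, -0.04 ± 0.10, Cyyr1 -0.11 ± 0.19 and Rwdd2b -0.06 ± 0.17. None of the 7 passed the test.

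Position along the chromosome was read next, since the members flank the targeted locus. The start sites lie from 18.6 Mb before that of Dyrk1a (Samsn1) to 2.79 Mb after it (Bace2). Within 2 Mb of Dyrk1a 8 of 18 members lay above 0 (median -0.02 on the log2 scale). Between 2 and 5 Mb 9 of 19 lay above 0 (median -0.03), and beyond 5 Mb 5 of 17 (median -0.06). The nearest member, Vps26c, a subunit of an endosomal recycling complex whose start site lies 0.04 Mb before that of Dyrk1a, held 57.4, 52.2 and 59.1 CPM in the controls and 52.8, 59.3 and 54.1 CPM in the mutants. Its groups overlapped fully, with a log2 fold change of -0.02 ± 0.09 (SE) and a 95% interval from -14.6% to 13.5%. Pigp, described above, is the next on that side, and Erg and Ets2, at 1.02 and 1.13 Mb, are the nearest on the other.

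**Figure D4:**
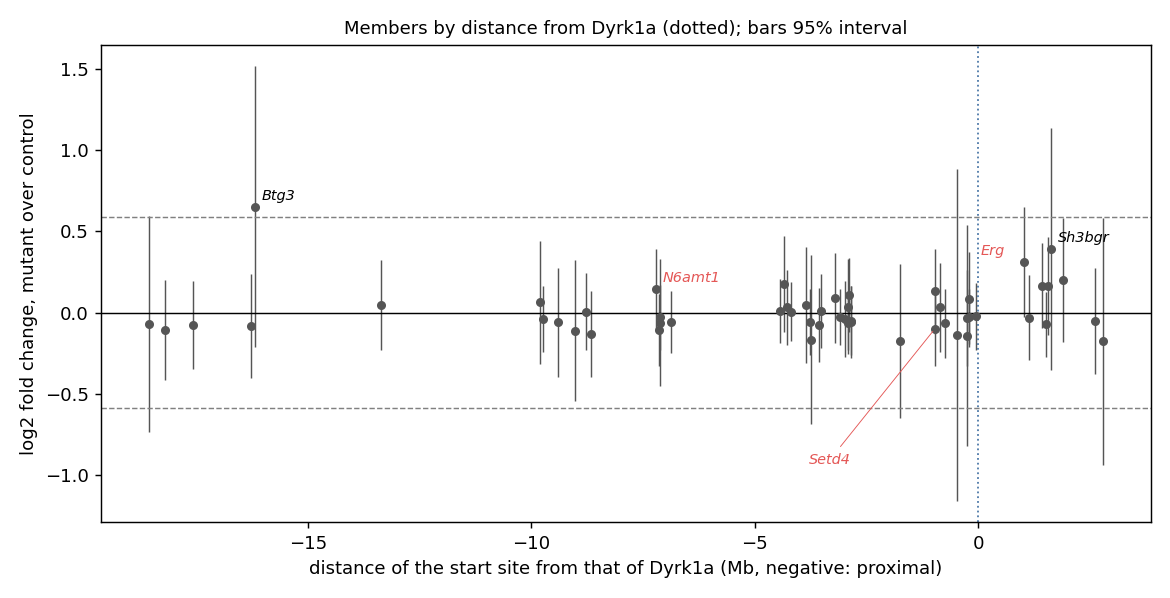
Log2 fold change of the 54 members against the distance of their start site from that of Dyrk1a (dotted line at 0; bars, 95% intervals; dashed lines, a 1.5-fold change either way; red names, the 3 members whose groups did not overlap). Points scatter around 0 on both sides of Dyrk1a, and the nearest member lies at -0.02.

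The replicate 3 libraries of both genotypes differed from the others in some members by more than the genotypes did. The 6 libraries held 24646616 to 38315004 counts, and the members made up 0.62% to 0.66% of them. Markers of red cells also set these libraries apart, in both directions. Hbb-y, an embryonic globin gene, held 321 and 322 CPM in the replicate 3 libraries against 27.8 to 42.5 in the others, and the embryonic globin genes Hba-x and Hbb-bh1 were also higher there in both genotypes. Hba-a1, an adult globin gene, and Alas2, an enzyme of haem synthesis, were lower there in both, by -0.28 and -0.22 log2 units for Hba-a1 and -0.47 and -0.31 for Alas2. The part of blood in the members' values was not tested. Compared with the mean of replicates 1 and 2 of the same genotype, 14 members were higher in replicate 3 in both genotypes, 17 lower in both, and 23 differed in sign. Over all 19616 tested genes these counts were 6396, 6103 and 7117. In both genotypes 4 members lay more than 0.3 log2 units above and 3 more than 0.3 below, beside 1156 and 1841 of the 19616 tested genes. Such differences were therefore not particular to the members. Members higher in both were led by Sim2, a bHLH-PAS transcription factor of the diencephalon, at 1.17 (controls) and 0.86 (mutants) log2 units. It held 0.54, 0.49 and 1.24 CPM in the controls and 0.46, 0.63 and 1.03 CPM in the mutants, and both replicate 3 libraries were above the other 4. The genotypes overlapped, with a log2 fold change of -0.14 ± 0.45 (SE). Jam2 followed at 0.38 and 0.48, then Mis18a at 0.35 and 0.38 and Hmgn1 at 0.31 and 0.36. Mis18a held 13.7, 13.0 and 17.1 CPM in the controls and 13.9, 13.5 and 17.8 CPM in the mutants. Members lower in both were led by Bace2 at -0.79 and -0.55, followed by App at -0.39 and -0.42, Dscam at -0.30 and -0.46 and Ncam2 at -0.34 and -0.24. These differences have 1 library on 1 side and were not tested. The sign of the genotype difference within replicates 1 and 2 was the same as within replicate 3 in 24 members, 12 above 0 in both and 12 below in both, and opposite in 30.

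**Figure D5:**
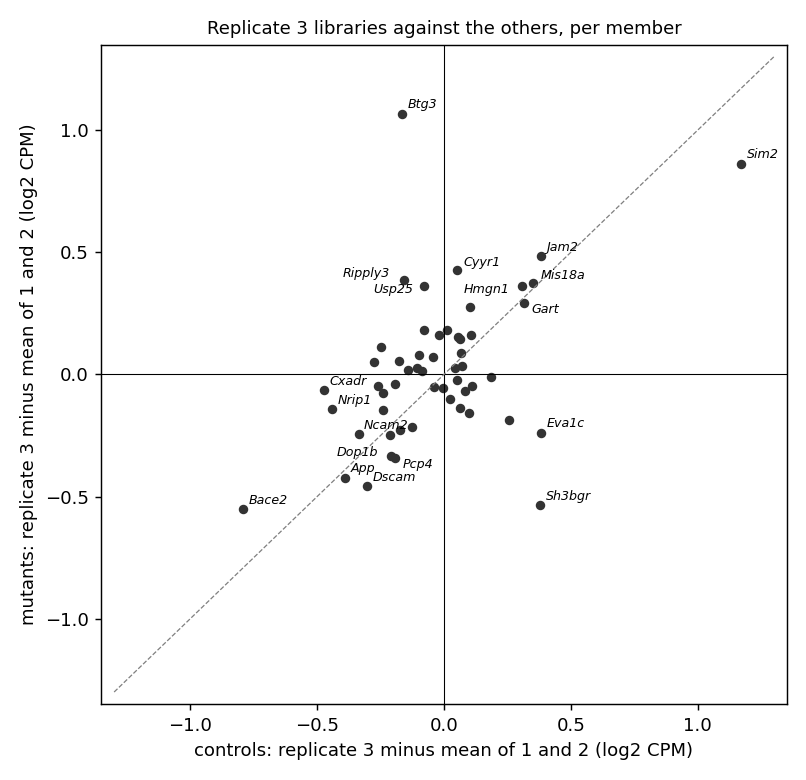
Difference of replicate 3 from the mean of replicates 1 and 2 in log2 CPM, controls on the horizontal and mutants on the vertical axis, 1 point per member (dashed line, equal values). Sim2, Jam2, Mis18a and Hmgn1 lie high in both genotypes and Bace2, App, Dscam and Ncam2 low in both; Btg3 and Sh3bgr lie far from the dashed line and have few counts.

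Other orthologues of human chromosome 21 genes also held none past the test. Of 42 further symbols on chromosome 16, 31 were tested, with 20 above 0 and 11 below, a median of 0.03 on the log2 scale and 0 at an unadjusted p under 0.05. The smallest p among them belonged to Lca5l, a ciliary gene, at 0.30 ± 0.22 (SE), Atp5o, an ATP synthase subunit gene, at 0.15 ± 0.11, and Mrpl39, a mitochondrial ribosomal protein gene, at 0.17 ± 0.13. On chromosome 17, 12 of 19 were tested, 8 above 0 and 4 below, with a median of 0.02. On chromosome 10, 27 of 32 were tested, 16 above 0 and 11 below, with a median of 0.02. In edgeR neither list held a gene at an unadjusted p under 0.05. In a check of the labelled tissue, all 11 markers of forebrain neurons and progenitors were present above 1 CPM in controls. They summed to 2348 to 2480 CPM in controls and 2416 to 2722 in mutants. Tubb3 alone averaged 1555 CPM in controls and 1685 in mutants, so the sums mostly follow that gene. Of the 11 markers 8 lay above 0 and 3 below. The groups did not overlap for Sox2, at 0.40 ± 0.16 (SE; edgeR, adjusted p = 0.9999).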

How the data were processed

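RNA of 6 forebrains (3 control, 3 mutant) was sequenced from TruSeq stranded total RNA libraries, single-end. The authors deposited whole-number read counts for each gene, made with HISAT2 on GRCm38, SAMtools 1.9 and HTSeq 0.9.1 per the submitters' processing notes; the strand and overlap settings of HTSeq are not stated there. The labels name both total RNA with rRNA depletion and polyA RNA. Gene symbols, coordinates and exon lengths came from GENCODE M21 on the same build, which gave a symbol for 32888 of 33084 identifiers.

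Genes were kept by filterByExpr (count minimum 10, total minimum 15), scaled by TMM and tested with edgeR 4.0.16 (quasi-likelihood F test, robust, no covariate, Benjamini-Hochberg over 19616 genes, threshold 0.05). The standard error is the size of the log2 fold change over the root of F, and 95% intervals use the t quantile. Log2 CPM per library used a prior count of 2. Level per kb divides CPM by the length of all exons of a gene. R 4.3.3, limma 3.58.1, DESeq2 1.42.0, Python 3.11.15 and matplotlib 3.10.9 were used, and the fit was tested on simulated data. Depth was 24646616 to 38315004 counts per library.

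The members and lists were chosen with earlier results of these data known. Values in every library are given for members whose groups did not overlap, the 3 highest per kb, the 4 largest replicate 3 differences of 1 sign in both genotypes in each direction, the 2 nearest to Dyrk1a on each side and 8 members known from Down syndrome research, and some further members chosen after their values were seen (Btg3, Ifnar1). Promoter windows of RefSeq lacked Cxadr, Jam2, Adamts5, Rwdd2b, Sim2, Ripply3, Sh3bgr and Bace2. Alternatives were other size factors, no filter, DESeq2, limma-voom with sample weights, a replicate block, removal of GC content and length trends, each library left out, and replicates 1 and 2 only. Part of the red cell marker list is not reported here.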

Additional observations from a re-analysis of the deposited data

How the results depend on the processing

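The count of members called stayed at 0 in all 14 alternative analyses. At an unadjusted p under 0.05 there were 3 members with limma-voom and sample weights (Erg, Sh3bgr and Pcp4; smallest adjusted p among members 0.423), where 9.71% of all tested genes reached that level, 2 with the replicate block and the GC and length trend removed (Erg and Hmgn1; 5.43% of all tested genes), 1 with replicates 1 and 2 only (Sod1; 7.86%), and 0 to 1 when leaving out 1 library, the 1 being Btg3 without mutant replicate 1 (1.53%). The median log2 fold change of the members ran from -0.028 to -0.0010 when leaving out 1 library (-0.0328 with all 6), the latter without control replicate 2, and was -0.01 with the GC and length trend removed. The count of intervals within a 1.5-fold change ran from 42 to 45. Same-numbered libraries of the genotypes had correlations of their deviations of 0.24, 0.07 and 0.36. Differently numbered libraries had correlations from -0.47 to 0.35. Whether the numbers pair the embryos is not stated in the labels and was not settled by these values. The main fit used no pairing, so any spread shared by same-numbered libraries stayed in its error. The replicate block changed no call among the members and gave a median of -0.03. It put 765 of all tested genes at an unadjusted p under 0.05 (edgeR), in place of 376. With only replicates 1 and 2, 3 of all tested genes were called, none of them a member. Of the 54 members 20 kept their sign in all 14 alternatives, 10 above 0 and 10 below, and 34 changed sign in at least 1. Of 756 values 12 moved by more than the standard error of the main value, among them Btg3 (0.19 without mutant replicate 3), Sim2 (0.46 without control replicate 3), Usp25 (-0.20 without mutant replicate 3) and Sod1 (0.03 without mutant replicate 2); the cause was not tested. The 9 members with intervals beyond a 1.5-fold change had 5.27 CPM or less; depth and spread between libraries were not separated there.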
